A study of Phaseolus coccineus with 4 samples.

Results

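Chromosome 6 held 2709 of the 35556 regions that ChIP of the WOX9-like protein gave in seeds of scarlet runner bean (Phaseolus coccineus), and 1550 of these 2709 were found in both replicates. Its members were all listed peaks on the sequence named chromosome 6, merged wherever they overlapped by at least 1 bp. A region is called shared when it holds a peak of each replicate. Of the others, 1077 were found in replicate 1 alone and 82 in replicate 2 alone. For comparison, 20728 of the 35556 regions of the whole series were shared, 13954 were in replicate 1 alone and 874 in replicate 2 alone. The shared regions lay mostly on one side of the chromosome: 1338 (86.3%) fell beyond the midpoint of the span and 212 (13.7%) before it. The description "dense at one end" therefore fits, with the qualification that the dense part took up the whole far side rather than the tip, and that numbers dropped again beyond 29 Mb.

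The study profiled seeds of the cultivar Hammond's Dwarf Red Flower taken 6 days after hand pollination, at the globular embryo stage. Per the labels' protocols, the micropylar portion of each seed, the end in which the embryo sits, was crosslinked, and the antibody was made against a peptide of the bean's own WOX9-like protein. All samples came from plants grown in one facility under the same light cycle and temperature. The 4 samples are 2 of WOX9-like ChIP (replicates 1 and 2) and 2 of input chromatin from the same cultivar, stage and tissue, with no antibody. Each ChIP replicate came with a peak list already set against a control, and the input samples were not analysed as samples of their own. Nothing in the labels says that the replicates came from separate plants, so the spread between them may be technical.

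WOX proteins are plant homeodomain transcription factors of the WUSCHEL-related homeobox family, which bind DNA and set cell fate in embryos and meristems. In Arabidopsis, WOX9 and its close relative WOX8 are known to act in the basal cells of the young embryo, which form the suspensor, the stalk that anchors and feeds the embryo. The scarlet runner bean is a classic subject for this organ because its suspensor cells are very large. ChIP-seq recovers DNA fragments crosslinked to the protein, and a peak is a stretch where such fragments outnumber those of the control. In plant chromosomes of this kind, genes are usually concentrated in the arms, and the stretches around the centromere are rich in repeats. Genes, centromere and sequence of chromosome 6 were not analysed here, since no sequence or annotation of the files' build was at hand, and whether a peak marks binding by the protein was not tested.

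The list of replicate 1 held 2645 peaks on chromosome 6, of 34876 in the whole list, and that of replicate 2 held 1764 of 23218. Chromosome 6 carried 7.58% of the first list and 7.60% of the second. The total depth of the libraries is unknown. Depth at single peaks could be computed from the deposited values: on chromosome 6 the median summit had 75 ChIP fragments over it in replicate 1, and 45 in replicate 2. The list medians were 76 and 44. These values describe called peaks, which passed the same filter on every chromosome, and not the depth of the chromosome as a whole. The end of the last peak stands in for the chromosome's length, giving a span of 31.2 Mb, the shortest of the 11 chromosomes, and positions count from 1.

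Along the chromosome, shared regions were few up to 15 Mb and several times as frequent beyond it, with neighbouring bins still differing widely. In 1 Mb bins, none of the first 15 bins held more than 23 shared regions, and none of the next 16 held fewer than 42. The medians of these bins were 80 beyond 15 Mb and 13 before it. The bins on either side of that boundary held 42 (15 to 16 Mb) and 23 (14 to 15 Mb), and the boundary itself was chosen after the counts were seen. Beyond it came bins of 52, 45 and 81, and the 7 bins between 22 and 29 Mb held 771 shared regions, 49.7% of all on the chromosome. The median shared region lay at 23.6 Mb. Spearman's rho between the count of a bin and its position was 0.89 across the 31 whole bins, which are neighbours and not independent.

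**Figure D1:**
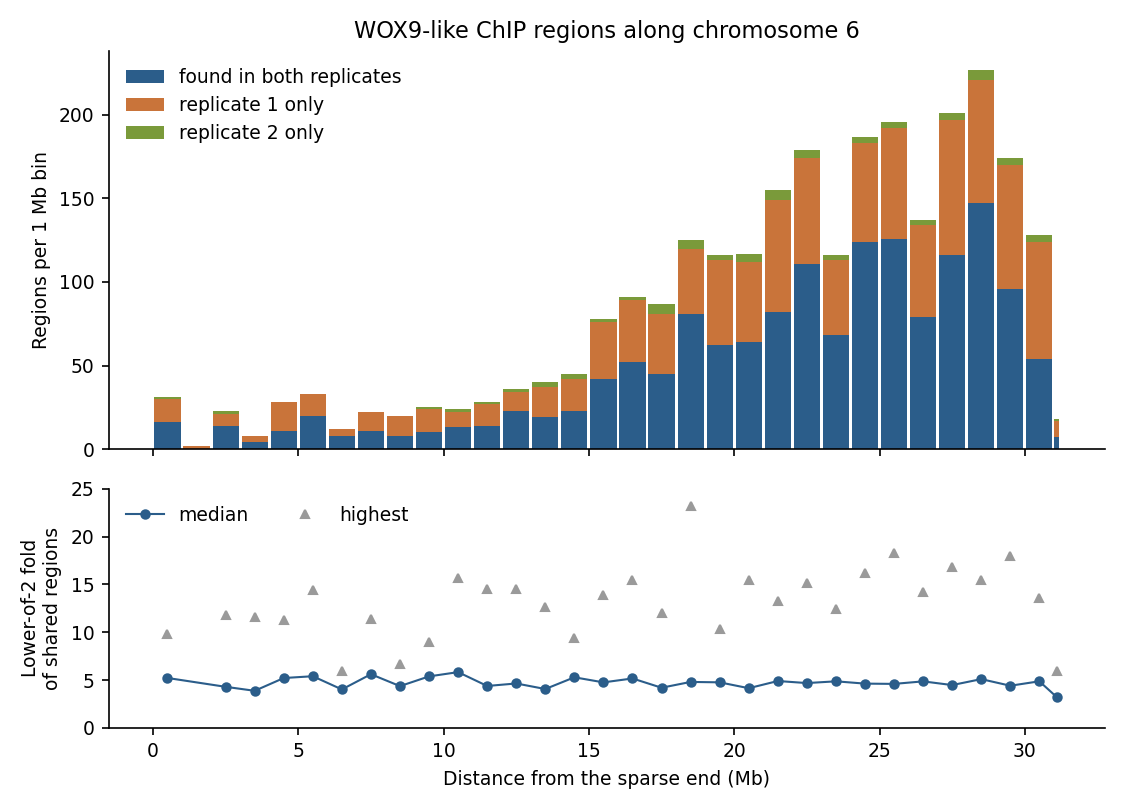
Upper panel: number of regions on chromosome 6 in each 1 Mb bin (the last bin is shorter) against distance from the sparse end in Mb, stacked by the replicates in which they were found. Lower panel: the median (circles) and highest (triangles) of the lower of the 2 replicates' fold enrichments among shared regions of the bin. No bin of the first 15 Mb holds more than 23 shared regions and that from 28 to 29 Mb holds 147, while the median fold stays between 4.06 and 5.83 in the bins with 10 or more shared regions.

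The densest bins were those from 28 to 29 Mb with 147 shared regions, from 25 to 26 Mb with 126 and from 24 to 25 Mb with 124. The bin from 28 to 29 Mb had 223 peaks in replicate 1 and 166 in replicate 2, and its shared regions covered 109 kb. In bins of 100 kb, the densest stretch was again within it, from 28500001 to 28600000, with 24 shared regions. The next lay from 27000001 to 27100000 with 22 and from 24800001 to 24900000 with 21. Past 29 Mb the counts dropped to 96 and then 54 per bin, and the last 0.2 Mb of the span held 7.

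The sparsest bin, from 1 to 2 Mb, held no shared region. Its 2 peaks, both of replicate 1 alone, were weak: a 219 bp peak starting at 1518252 had a fold enrichment of 2.76 with 43 fragments, and a 352 bp peak starting at 1520221 had 2.65 with 37. This bin lay in the longest stretch without a shared region, 1.39 Mb from 699216 to 2093019. The next sparsest bin, from 3 to 4 Mb, held 4 shared regions, and those from 6 to 7 Mb and from 8 to 9 Mb held 8 each. One of the 4 regions between 3 and 4 Mb, from 3376961 to 3377484, reached a fold of 11.6 in replicate 1 and 14.8 in replicate 2. The other 3 lay between 2.68 and 6.30 in both replicates. The region of high fold was followed by a gap of 486512 bp, the second longest of the chromosome, so a strong region also occurred far from most others.

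The gradient was present in each replicate's list taken alone. Replicate 1 had 84.7% of its chromosome 6 peaks on the dense side of the midpoint, and replicate 2 had 86.1%. When the span was divided into 4 equal segments of 7.80 Mb, replicate 1 gave 19.6, 32.3, 119 and 168 peaks per Mb from the first segment to the last. Replicate 2 gave 11.7, 19.9, 79.2 and 115 peaks per Mb. Shared regions followed with 10.5, 16.7, 70.3 and 101 per Mb, that is 82, 130, 548 and 790 regions. The last segment thus held 9.63 times as many shared regions as the first, and the ratio was 8.58 for all peaks of replicate 1 and 9.89 for all peaks of replicate 2. Counts per 1 Mb bin ranked almost alike in both replicates (Spearman's rho 0.98 across 31 bins, which share the same mappable sequence).

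Among the 11 chromosomes, chromosome 6 had the most one-sided distribution by each of the measures that follow, which describe this genome and are not tests. Its share of shared regions on the more populated side, 86.3%, compared with 50.8% (chromosome 9) to 73.9% (chromosome 3) on the other 10. The ratio of the more to the less populated end segment was 9.63 on chromosome 6 and 1.08 (chromosome 7) to 2.82 (chromosome 11) elsewhere. The rho of bin count with position was 0.89 on chromosome 6, and on the others it ran from -0.38 (chromosome 11) to 0.61 (chromosome 3). Chromosome 3 was therefore the most like it in direction, while chromosome 11 leaned the opposite way, with its higher numbers at the start. The gradient is a property for which this chromosome was picked out, so these ranks are a description.

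**Figure D2:**
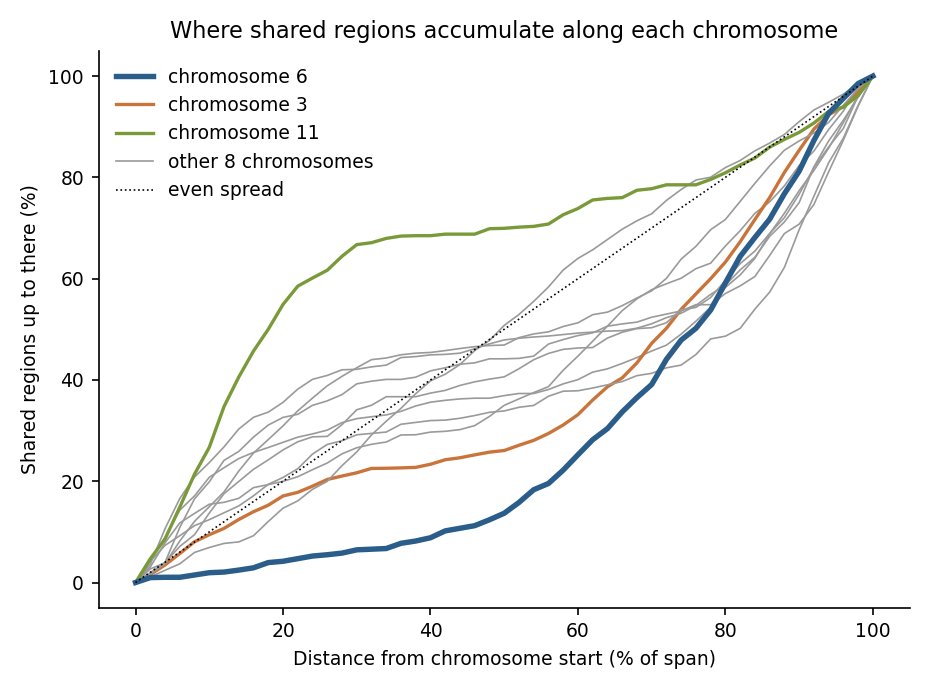
Cumulative share of shared regions (%) against distance from the chromosome start (% of the span), for chromosome 6, for chromosomes 3 and 11, which were the next most one-sided, and for the other 8 chromosomes; the dotted line is an even spread. On chromosome 6 only 13.7% of the shared regions had accumulated at the midpoint, the lowest curve of the 11 there.

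Both ends contributed to this rank. The last segment of chromosome 6, with 101 shared regions per Mb, was the densest of all 44 segments of the 11 chromosomes, and the highest last segment elsewhere was that of chromosome 3 with 93.4. The first segment, with 10.5 per Mb, was the sparsest first segment of the 11, against 25.8 (chromosome 10) to 82.7 (chromosome 7) on the others. Of the 44 segments, 8 were lower than the first segment of chromosome 6, all of them inner segments of chromosomes 4, 8, 10 and 11, among them the second segment of chromosome 4 with 7.83 per Mb and the third of chromosome 8 with 7.74. Chromosome 6 was 1 of 2 chromosomes, with chromosome 9, on which the first segment was sparser than the second. With 70.3 per Mb between 15.6 and 23.4 Mb, chromosome 6 also had the densest inner segment on that side of the 11, just above chromosome 9 with 68.6.

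**Figure D3:**
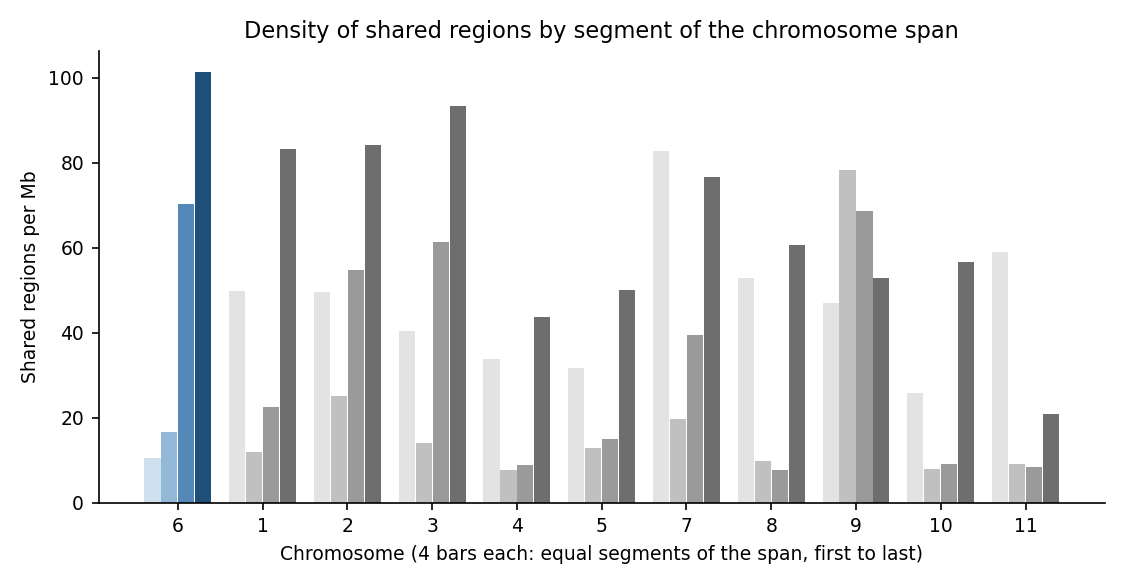
Shared regions per Mb in 4 equal segments of the span of each chromosome, from the first (lightest bar) to the last (darkest), chromosome 6 in blue and the other 10 in grey. On chromosome 6 the bars climb from 10.5 to 101 per Mb, whereas most others are high at both ends.

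Because chromosome 6 has the shortest span, its segments are also the shortest. With stretches of 7.80 Mb at both ends of every chromosome, its last stretch held 790 shared regions, against 186 (chromosome 11) to 720 (chromosome 1) on the others. Its first stretch held 82, against 208 (chromosome 10) to 656 (chromosome 7). The ratio of the denser to the sparser end was 1.07 (chromosome 8) to 2.99 (chromosome 11) elsewhere. The densest stretch of that length was not on chromosome 6, however: 858 shared regions were the most there, from 21.7 Mb on, and chromosome 3 held 862. Over its whole span chromosome 6 had 49.7 shared regions per Mb, the fifth highest, with 39.1 per Mb over the other 10 chromosomes together. Of its 31 whole bins 5 (16.1%) held more than 100 shared regions, against 23 of the 479 whole bins of the other chromosomes (4.80%). At the low end, 5 bins (16.1%) held 10 or fewer, against 109 (22.8%).

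Spacing changed along the chromosome with the density. The median gap between neighbouring shared regions was 31743 bp in the first segment, 22729 bp in the second, 5761 bp in the third and 3961 bp in the last. The last value was the smallest of the 11 chromosomes for that segment, the others having 4416 bp (chromosome 3) to 12630 bp (chromosome 11). All 14 gaps of more than 250000 bp lay on the sparse side, as did 45 of the 49 gaps of more than 100000 bp. On the dense side every one of the 156 bins of 100 kb held at least 1 shared region, whereas 70 of 156 (44.9%) on the sparse side were empty. For the whole chromosome the median gap was 5224 bp, the smallest of the 11, where the other 10 had 5368 bp (chromosome 2) to 9324 bp (chromosome 5). Between all peaks of replicate 1 on chromosome 6 it was 3369 bp, and between all peaks of replicate 2 it was 4304 bp; the rank was not computed for single replicates.

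**Figure D4:**
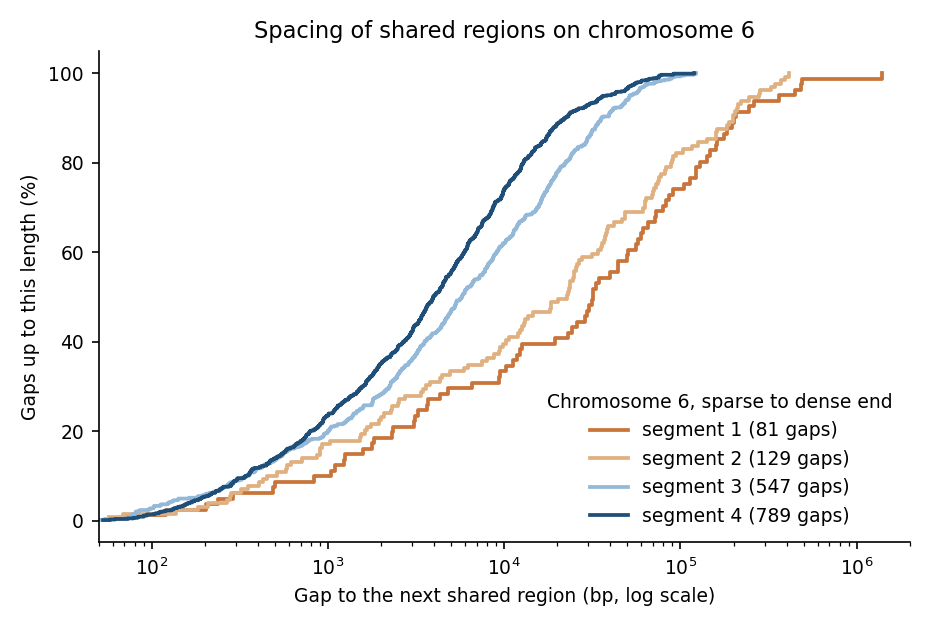
Cumulative share (%) of the gaps between neighbouring shared regions of chromosome 6 against gap length in bp (log scale), for the 4 equal segments of the span. The curves shift to shorter gaps from segment 1 (median 31743 bp) to segment 4 (median 3961 bp), and the longest gaps, up to 1.39 Mb, occur in segment 1.

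Close neighbours occurred on both sides but were more frequent in the dense part. Gaps of at most 1000 bp made up 9.88% of gaps in the first segment (8 of 81), 17.1% in the second (22 of 129), 20.1% in the third (110 of 547) and 23.4% in the last (185 of 789). Runs of regions joined by such gaps held 560 of the 1550 shared regions (36.1%), close to the 35.8% of the other 10 chromosomes together. The largest runs held 6 regions, and the largest elsewhere held 6 too. One of these spanned 9.24 kb from 29955078 to 29964320 and contained a region of high fold at its far end, with 15.3 in replicate 1 and 22.6 in replicate 2. The other 5 regions of this run lay between 2.77 and 13.8. A second run of 6 spanned 5.80 kb from 22769691 to 22775487, with folds between 2.26 and 12.1. In the sparser part, a run of 5 lay from 14708273 to 14715856 in the second segment, close before the rise in density.

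The strength of the regions did not follow their number in the same way. Fold enrichment is the authors' ratio of ChIP to local control at the summit, and each shared region is represented here by the lower of its 2 replicate values. The median of this value was 4.69 on the dense side (quartiles 3.52 and 6.82) and 4.94 on the sparse side (quartiles 3.37 and 7.0). Across the 1550 shared regions, rho of fold with position was -0.0043. By segment the medians were 5.09, 4.73, 4.65 and 4.70. The value of the first segment was the highest first segment of the 11 chromosomes, where the others had 4.19 (chromosome 10) to 4.96 (chromosome 8), but it rests on 82 regions. The same segment had the lowest median control background of the 11 first segments in both replicates. It was 16 in replicate 1 (17 to 17.9 elsewhere) and 6.88 in replicate 2 (7.74 to 8.60 elsewhere). A fold is divided by this background, and the part of the background in this rank was not tested.

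Regions that reached a fold of 10 in each replicate numbered 123 on chromosome 6, or 7.94% of its shared regions, against 8.78% of shared regions in the whole series and 8.84% on the other 10 chromosomes. This share was the second lowest of the 11 chromosomes, with 7.88% on chromosome 2 and up to 9.96% on chromosome 8. Of the 123, 105 (85.4%) lay on the dense side, as did 86.4% of the 1427 weaker ones. The share by segment was 8.54%, 8.46%, 6.57% and 8.73%, from 7, 11, 36 and 69 regions. Every one of the 16 whole bins beyond 15 Mb had at least 1 such region, and so did 9 of the 14 bins with shared regions before it. The bins beyond 15 Mb also held more shared regions each. Across the 30 bins with shared regions, rho of count with highest fold was 0.71. Among the 200 strongest shared regions of all 11 chromosomes, 13 (6.50%) lay on chromosome 6, which held 7.59% of all shared regions.

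The local control background was lowest in the first segment, and in replicate 2 it was also lower in the second segment than in the third and last. At shared regions the median background of replicate 2 was 6.88, 7.74, 8.60 and 8.59 from the first segment to the last, in control fragments after scaling by the authors' peak caller, and that of replicate 1 was 16 in the first segment and 18 in each of the others. Across the 27 whole bins with at least 10 shared regions, rho of bin count with median background was 0.75 in replicate 2 and 0.55 in replicate 1. On the other chromosomes these rhos ran from -0.20 to 0.50 in replicate 2 and from -0.17 to 0.68 in replicate 1. Over the same 27 bins, rho of count with median fold was -0.35, the lowest of the 11 chromosomes (-0.31 to 0.35 on the others), and it was -0.0027 over all 30 bins with a shared region. A fold is divided by this background, and the part of the background in the gradient or in the folds was not tested. Median ChIP fragments at the summits were nearly level, with 103, 104.5, 104.5 and 109 in replicate 1 and 45, 45, 47.5 and 47 in replicate 2.

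Regions of chromosome 6 were as wide as elsewhere. Their median width was 536.5 bp (quartiles 405 and 770 bp), against 541 bp (quartiles 406 and 771 bp) on the other 10 chromosomes, and the medians by segment were 523, 493.5, 533.5 and 549 bp. Wide regions were somewhat more frequent on the dense side, where 14.2% reached 1000 bp, than on the sparse side, with 8.96% (190 and 19 regions). The 2 widest were nevertheless near neighbours in the sparser part. One spanned 4972 bp from 12872905 to 12877876, with a fold of 8.50 ± 1.27 (SD, n = 2), and joined 1 peak of replicate 1 with 5 of replicate 2. The other spanned 4495 bp from 12926681 to 12931175, with 14.8 ± 1.14 (SD, n = 2), and joined 1 peak with 3. Their highest summits lay 1285 and 2375 bp apart between replicates, so the replicates placed their maxima at different points of these 2 regions. The third widest lay on the dense side, 4077 bp from 24797208 to 24801284, with 5.96 ± 0.544 (SD, n = 2) and 6 peaks of replicate 2 under 1 of replicate 1.

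Wider regions tended to be stronger, but not without exception. In order of width, the 3 widest ranked 304, 22 and 577 by lower-of-2 fold. Each region takes the highest-fold peak of each replicate, so regions with several peaks draw on more values. Across shared regions of chromosome 6, rho of width with fold was 0.49, and it was 0.45 to 0.52 on the other chromosomes. The median width was 969 bp at regions of fold 10 or more in both replicates and 512 bp at the others. In most shared regions (1427, or 92.1%) 1 peak of each list met, close to the 92.7% of the other 10 chromosomes. In 106 several peaks of replicate 2 lay under 1 of replicate 1, and on the other 10 chromosomes this held for 1203 of 18883.

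The 10 shared regions of chromosome 6 with the highest lower-of-2 fold had values between 15.3 and 23.2 and widths between 675 and 1587 bp. The region just below them had 15.3068, against 15.3456 for the tenth, so the limit of 10 separates nearly equal regions. In all but 1 of the 10 the fold was higher in replicate 2, and 9 of the 10 lay on the dense side. Of all shared regions of the chromosome, 86.3% lay on that side. Over all of them, the median log2 of replicate 2 over replicate 1 was -0.02. Brackets below give exact 95% Poisson intervals of the ChIP fragments, which cover counting error of the ChIP only. The control backgrounds of these regions were mostly low: 9 of 10 were under the list median of 17.0 in replicate 1, and 7 of 10 under that of 8.60 in replicate 2. A fold is divided by this background, so ranking by fold itself favours regions of low background.

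The strongest region lay in the third segment from 18300873 to 18302459, with a fold of 23.2 (20.4 to 26.3) in replicate 1 and 25.8 (22.4 to 29.6) in replicate 2. Its summits, 16 bp apart, were covered by 244 and 202 fragments. The second, from 25482180 to 25483083, had 18.3 (16.2 to 20.5) and 20.9 (18.2 to 24.0), with summits 41 bp apart. In both regions the intervals of the replicates overlapped.

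The third, from 29728317 to 29729082, had 17.9 (15.7 to 20.4) in replicate 1 and 29.1 (24.97 to 33.6) in replicate 2, the widest difference of the 10. Its fragments numbered 235 and 178 over backgrounds of 12.1 and 5.16. The intervals also failed to overlap at the region from 20186928 to 20188051, with 15.5 (13.8 to 17.3) and 21.1 (17.9965 to 24.5). The same was true from 29963646 to 29964320, with 15.3 (13.4 to 17.5) and 22.6 (18.8 to 27.1), the last member of the run of 6 described above. At these 3 regions the replicates thus differed by more than the counting error of the ChIP, and the counting error of the control is not included.

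The best match between replicates by SD was at the region from 16818318 to 16819131, with 15.9 ± 0.656 (SD, n = 2), which also had the most distant summits of the 10, at 120 bp. It lay shortly after the rise in density, with a gap of 99709 bp on its far side. The region from 27335039 to 27336007 had 17.4 ± 0.756, that from 24274340 to 24275464 had 18.3 ± 3.08, and that from 28445349 to 28446751 had 16.3 ± 1.12 (SD, n = 2 for each). The last of these had the most company, with 32 other shared regions within 100 kb on either side.

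On the sparse side, the strongest region of the second segment lay from 10664710 to 10665569, with 15.7 (13.9 to 17.8) and 16.8 (14.2 to 19.8), and ranked sixth on the chromosome. Its summits were 4 bp apart, and 7 other shared regions lay within 100 kb on either side. The strongest of the first segment, from 5356030 to 5356928, had 14.5 (12.6 to 16.5) and 19.8 (16.5 to 23.6), with summits 3 bp apart, and ranked seventeenth. It was not isolated, since its neighbours lay 238 and 838 bp away.

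**Figure D5:**
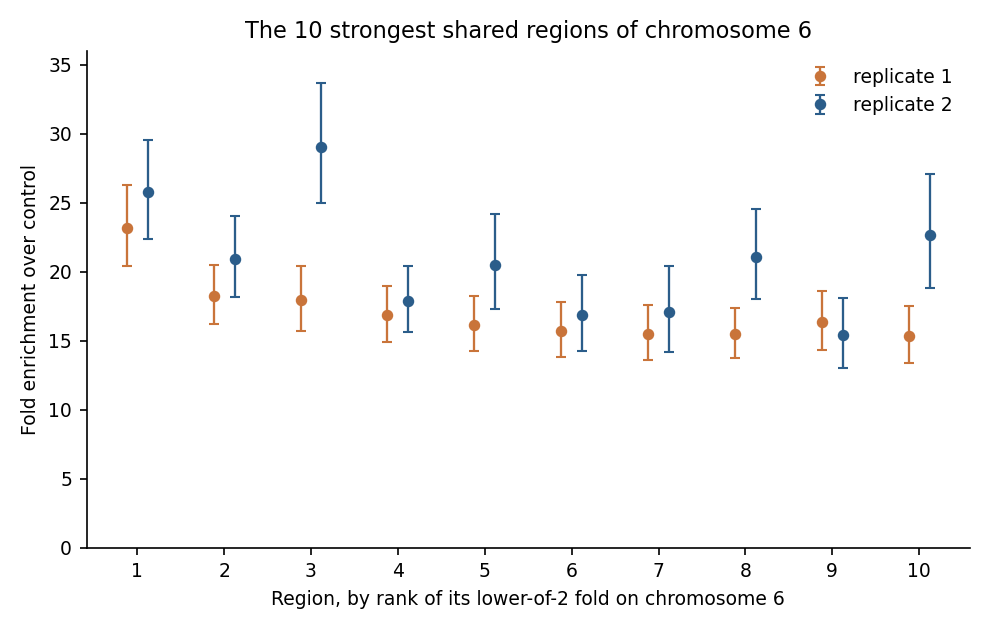
Fold enrichment over control in replicate 1 and replicate 2 for the 10 shared regions of chromosome 6 with the highest lower-of-2 fold, in order of rank; bars are exact 95% Poisson intervals of the ChIP fragments at the summit. Replicate 2 is higher in 9 of the 10, and the intervals do not overlap at ranks 3, 8 and 10.

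The replicates matched on chromosome 6 about as they did elsewhere. Of the replicate 1 peaks, 59.3% (Wilson 95% interval 57.4 to 61.1) had a partner in replicate 2, against 60.0% over the whole list. Of the replicate 2 peaks, 95.4% (interval 94.3 to 96.2) had a partner in replicate 1, against 96.2% over the whole list, the lowest of the 11 chromosomes by a very small margin (95.35%, against 95.38% on chromosome 11 and up to 96.9% on chromosome 2). These intervals treat peaks as independent. By side of the midpoint, 60.4% (58.4 to 62.4) of replicate 1 peaks had a partner on the dense side and 53.1% (48.2 to 57.9) on the sparse side. For replicate 2 the shares were 95.7% (94.6 to 96.6) on the dense side and 93.1% (89.2 to 95.6) on the sparse side. By segment, from the first to the last, the shares were 54.9%, 52.0%, 60.1% and 60.6% for replicate 1 and 96.7%, 91.0%, 94.7% and 96.4% for replicate 2. The lower share of replicate 2 on the sparse side thus came from the second segment, where 14 of 155 peaks had no partner, while its first segment had the highest share of the 4. In the second segment of the other chromosomes the shares were 51.8% (chromosome 1) to 63.1% (chromosome 10) for replicate 1, a range that includes chromosome 6, and 94.3% (chromosome 1) to 98.9% (chromosome 10) for replicate 2, all above it. The third segment, on the dense side, was also below all others for replicate 2, with 33 of 618 peaks unmatched. There the other chromosomes had 96.1% (chromosome 1) to 99.2% (chromosome 8).

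Summits of shared regions were a median of 37 bp apart, and 85.2% lay within 100 bp. The median distance was 26 bp at regions of fold 10 or more in both replicates and 37 bp at the others. Fold enrichment correlated between replicates with a Spearman's rho of 0.71 across the 1550 regions, and summit fragments with 0.86. On the log2 scale, replicate 2 minus replicate 1 had a median of -0.02 (SD 0.53 over the regions), and 94.0% of the regions differed by no more than 2-fold. By segment this median log2 difference was 0.01, 0.03, -0.004 and -0.04, all small beside that SD.

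Peaks found in a single replicate also lay mostly on the dense side, though in a smaller share than peaks with a partner, and were weaker. On the dense side lay 887 of the 1077 replicate 1 peaks without a partner (82.4%) and 65 of the 82 of replicate 2 (79.3%). For peaks with a partner the shares were 86.3% in replicate 1 and 86.4% in replicate 2. The median fold of replicate 1 peaks without a partner was 3.14, with 53 fragments at the summit, against 5.63 and 107 fragments for those with one. The same medians in replicate 2 were 3.23 with 26 fragments and 5.19 with 46. Only 3 unmatched peaks of replicate 1, and none of replicate 2, reached a fold of 10. The strongest, from 11613452 to 11613930, had 12.7 (10.5 to 15.4), with a replicate 2 peak at a distance of 383 bp. Its background of 7.43 equalled the lowest of all replicate 1 peaks. The strongest unmatched peak of replicate 2, from 18034524 to 18034732, had 6.59 (4.72 to 8.99), with 38 fragments and a replicate 1 peak 402 bp away.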

How the data were processed

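Peaks came from MACS2, and Bowtie 0.12.7 and SAMtools 0.1.18 are also named, per the submitters' processing notes, without settings. Each ChIP sample has a deposited peak list of its own. The peak names end in Pv442. The build is not given in words, and a tag of this form may stand for an assembly of common bean, a related species, in which case diverged sequence would be under-represented. By the peak names in the deposited lists, the control of replicate 1 is called noAb and that of replicate 2 input, so the kind of control may differ between the replicates. The deposited lists give fold enrichment (a ratio), p-values and q-values as −log10, and a score equal to 10 times −log10 q cut to a whole number. The lowest −log10 q was 2.00 and 2.03.

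Peaks were merged at an overlap of 1 bp (Python 3.11.15, pandas 2.3.3), placed by region centre in whole 1 Mb bins and in 4 equal segments of the span. Each region takes the highest-fold peak of each replicate. Summit fragments and backgrounds were solved from fold and p (MACS2 writes fold as (pileup + 1)/(background + 1)), matching all peaks within 0.002 in −log10 p, with replicate 1 ChIP counts multiplied by 0.99444. This computation, merging and binning were tested on simulated data. The libraries were amplified by PCR and no molecular identifiers are mentioned, so reads may repeat a molecule and intervals cover counting error only. No significance test was made: regions are not replicates. Members and measures were chosen with earlier results of these data known. Regions named were the 10 highest by lower-of-2 fold, the strongest of each segment, the 3 widest, the strongest unmatched of each list, the 3 densest and sparsest bins and the longest gap. Runs, 100 kb bins and single peaks of sparse bins were added after their values were seen.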

Additional observations from a re-analysis of the deposited data

How the results depend on the processing

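Among 41 values recomputed under other settings, 20 moved by less than the limit and 21 by more. The limit was the spread between replicates, a 95% interval or 1.5 times. Those 21 include every alternative for the partner shares and for the median folds. The alternative folds cannot lie below the lower of the 2 replicate values, and an overlap of 50% cannot leave more partners than 1 bp. The direction of these moves was therefore fixed by definition. A reversal could be scored only for the rho of bin count with position, where none occurred. The dense side held most regions, and the last segment was the densest, in all 7 sets of peaks or regions tried. These sets were the main one, stricter versions of it and the 2 single lists. They share the same peaks, so they are not independent checks of the gradient. A fold of at least 5 in both lists left 691 shared regions, 85.2% of them on the dense side, a ratio of last to first segment of 8.09 and a rho of 0.85. Bins of 2 Mb gave a rho of 0.96. Leaving out either replicate gave shares of 84.7% to 86.1%, ratios of 8.58 to 9.89, rhos of 0.89 to 0.92 and median gaps of 3369 to 4304 bp. When overlap had to reach 50% of each peak, partners were left for 48.5% of replicate 1 and 72.8% of replicate 2 peaks, and summits within 100 bp for 50.7% and 76.1%. The median fold of the last and first segment was 5.35 and 5.62 by geometric mean, 5.69 and 5.88 in replicate 1, and 5.33 and 5.42 in replicate 2. In shared regions, the replicate 2 peak by itself had a median width of 357 bp, against 536.5 bp for the merged region. Equal stretches at both ends of every chromosome, and the share among regions of fold 10 or more, were chosen after seeing the data. On chromosome 6 the equal stretches are its own end segments, so its ratio of 9.63 could not change there. No paired analysis was possible because only ChIP samples have peak lists here, and the inputs numbered like them were not analysed as samples. The mappable share of the bins and the total depth are unknown.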
